A study of Mus musculus with 37 samples.

Results

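The undefeated mice of a study of social defeat stress gave a baseline comparison of spleen with femoral bone marrow across all genes, chosen here as every library labelled as a control. These were 7 of 37 RNA sequencing libraries, 4 from spleen (numbered 1, 2, 3 and 4) and 3 from marrow (numbered 1, 2 and 4). All came from wild-type C57BL/6N mice that underwent no social defeat, and the other 30 libraries, from mice defeated 1, 4 or 10 times or left for 1 week after 10 defeats, entered only the last comparison. Marrow was flushed from the femur and RNA was taken from harvested spleen, so both are mixtures of cell types, in which fewer cells of a type and less RNA per cell cannot be told apart. The way of collection also differed with the tissue, so its part in any difference cannot be told apart, those of stroma, vessel, niche and bone genes included. The series calls its libraries biological replicates. The labels used here do not tie them to separate mice or say whether a spleen and a marrow of the same number came from 1 mouse. Among the defeated libraries, every number found in both tissues had the same condition in both. The main fit did not pair libraries by number, so p-values measure the spread between these libraries.

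Marrow is where blood cells are made in the adult mouse: stem cells divide there and pass through granulocyte, red cell, platelet and B cell precursor stages, held in place by stroma that makes CXCL12. Spleen filters blood through red pulp, where macrophages remove old red cells and recycle their iron, and houses lymphocytes in white pulp, where stromal cells make the chemokines CCL19, CCL21 and CXCL13 that draw T cells, dendritic cells and B cells into separate zones. In the mouse the spleen also keeps a reserve of blood formation.

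Values below are the deposited abundances, scaled per library, and library values are always given in the order 1, 2, 3, 4 for spleen and 1, 2, 4 for marrow. Differences are log2(value + 1) in spleen minus that in marrow, with the standard error from limma, and a gene is called at an adjusted p under 0.05. This scale understates the change of genes with low values. Of 13039 genes tested, 4587 were higher in spleen (35.2%) and 3468 were higher in marrow (26.6%), and these shares are the background for every count below. More than 4-fold differences were called for 650 genes on the spleen side and 505 on the marrow side, and more than 8-fold differences for 202 and 154. The libraries of the tissues did not overlap for 8358 genes (64.1%). The median over all genes tested was 0.10. It moved to 0.32 when library totals were made equal and to -0.17 when they were made equal without haemoglobin genes, and the share of calls that were higher in spleen went from 56.9% to 71.1% and 39.2%. Small differences are read against that shift.

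Libraries of a tissue resembled each other closely (correlation 0.964 to 0.983 within spleen, 0.986 to 0.99 within marrow, 0.776 to 0.83 between tissues), and none was a copy of another. Depth, estimated from the steps between low values, was 7.095 to 38.52 M reads. Marrow library 4 had the highest marrow value for 142 of the 202 genes more than 8-fold higher in spleen, at a median of 7.9% of the spleen mean against 4.44% and 4.82% in the other two. Spleen library 3 had the highest spleen value for 88 of the 154 genes more than 8-fold higher in marrow. Spleen library 2 had a summed value of 180.1 for 15 pancreatic acinar genes, against 22.36 to 31.62 in the other spleens and 22.29 to 32.36 in marrow, with the digestive enzyme genes Ctrb1 at 15 and Prss2 at 9.48. The part of these libraries in each result was not tested beyond leaving them out. Without marrow library 4 the counts were 4141 and 3006 genes, without spleen library 3 they were 4803 and 3356, and without spleen library 2 they were 4570 and 3378.

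**Figure D1:**
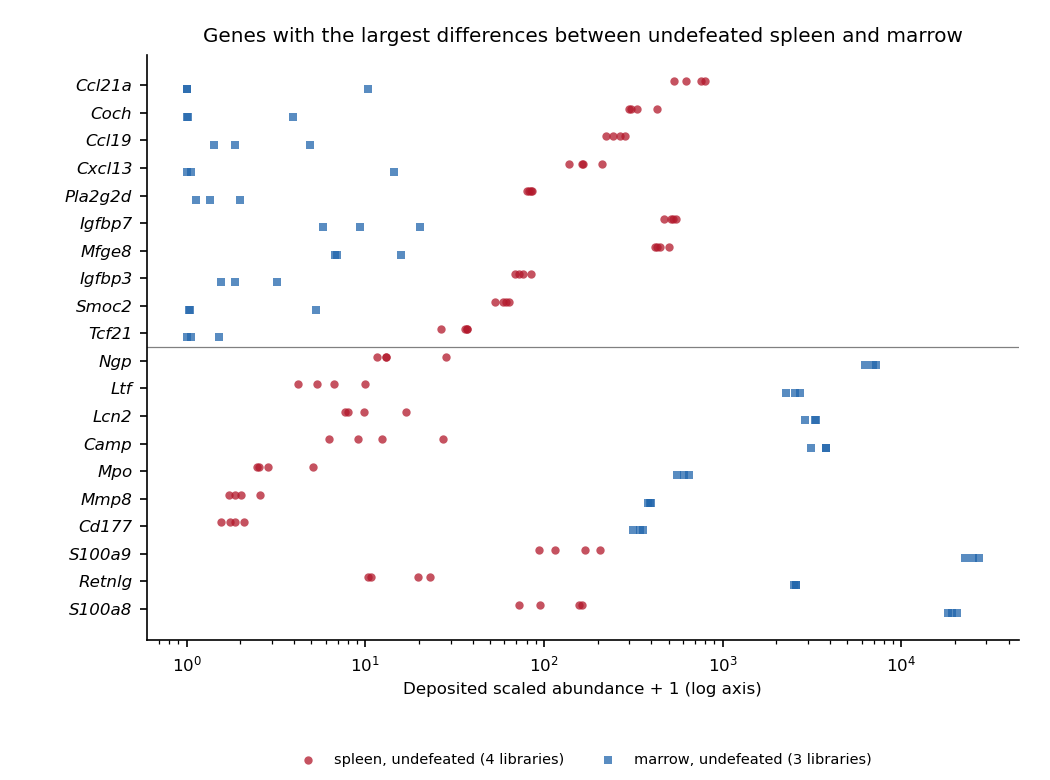
Deposited scaled abundance plus 1 (log axis) of the 10 genes with the largest called difference in each direction, 1 point per library, spleen as circles and marrow as squares. The genes were chosen among those whose tissues do not overlap, leaving out immunoglobulin and T cell receptor genes, pseudogenes and predicted models. Marrow library 4 is the highest marrow square for each of the 10 genes higher in spleen.

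The largest differences toward spleen, leaving out immunoglobulin and T cell receptor genes, pseudogenes and predicted models, included chemokines and matrix genes of its stroma. Ccl21a, which draws T cells and dendritic cells through the receptor CCR7 (chr4:42772860-42773993, minus strand, GRCm38), read 795, 759, 537 and 625 in spleen and 0, 0 and 9.37 in marrow (log2 difference 8.27 ± 0.87 SE, adjusted p = 0.000311). Ccl19, the other ligand of CCR7, read 267, 283, 242 and 222 against 0.867, 0.42 and 3.91 (6.75 ± 0.40, adjusted p = 9.69e-06). Cxcl13, which draws B cells into follicles, read 164, 210, 163 and 137 against 0, 0.0578 and 13.5 (6.08 ± 0.99, adjusted p = 0.0022). All spleens were far above all marrows, and in each of the 3 genes marrow library 4 was the highest marrow. Without that library the difference of Ccl21a was 9.39 and that of Cxcl13 was 7.35. Coch read 331, 430, 298 and 308 against 0.0187, 0 and 2.94 (7.74 ± 0.51; 8.39 without marrow library 4), and Smoc2, a matrix protein gene, differed by 5.05 (5.83 without it). Pla2g2d, a secreted phospholipase made by dendritic cells and macrophages of lymphoid tissue, read 84.3, 83.2, 82 and 79 against 0.135, 0.353 and 0.993 (5.84 ± 0.17, adjusted p = 1.48e-08).

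Of 14 white pulp genes tested, 12 were higher in spleen and 2 in marrow (median 2.46). Madcam1, the adhesion molecule of marginal sinus lining cells, read 30.7, 18.7, 27.3 and 22.8 in spleen and 0, 0.0726 and 0.288 in marrow (4.51 ± 0.18, adjusted p = 6.92e-08). Lta and Ltb, the lymphotoxins by which lymphocytes keep this stroma in place, were higher in spleen by 2.26 ± 0.12 and 2.27 ± 0.14. The members that went the other way were Ltbr, the lymphotoxin receptor, at -0.55, and Tnfsf13b, the B cell survival factor BAFF, at -0.93. The promoter of Madcam1 is printed because it carries letters of the NF-kB family, which act downstream of the lymphotoxin receptor. The run of GGGA, any base and TTTCC, searched on both strands in the 250 bases before the RefSeq start, were found in 2 of 13 white pulp promoters (Madcam1 and Ltb) and in 0.34% of 27025 RefSeq promoters. The match on the other strand is in capitals in chr10:79664309-79664558, plus strand, GRCm38.p6.
Madcam1: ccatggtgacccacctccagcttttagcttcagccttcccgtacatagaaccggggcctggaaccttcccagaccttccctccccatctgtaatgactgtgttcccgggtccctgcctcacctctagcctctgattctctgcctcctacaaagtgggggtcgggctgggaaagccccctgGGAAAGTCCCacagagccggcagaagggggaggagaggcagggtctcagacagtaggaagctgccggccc
Such letters describe the window and are not evidence of binding.

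Organ identity genes separated the tissues as well. Tlx1, the homeobox gene without which a mouse forms no spleen, read 7.53, 11.4, 11.9 and 11.6 against 0, 0 and 0.608 (3.29 ± 0.21, adjusted p = 1.29e-06). Tcf21, a regulator of splenic mesenchyme, read 25.5, 35.2, 36.1 and 36.3 against 0.0564, 0 and 0.512 (4.86 ± 0.18). Nkx2-3, needed for the marginal zone, differed by 2.7 ± 0.13, Wt1 by 2.34 ± 0.15 and Nkx2-5 by 1.73 ± 0.14. In total 5 of 6 tested genes of splenic mesenchyme were higher in spleen. Of the Hox genes, which mark position along the body, Hoxa9 was higher in marrow (-1.19 ± 0.12), where myeloid progenitors use it, and 20 of 23 were too low to test.

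Vessels, capsule and matrix followed the same direction. Of 16 endothelial genes 15 were higher in spleen, of 11 smooth muscle genes 11, and of 11 fibroblast genes 10. Stab2, the scavenger receptor of sinusoids, read 24.5, 24.4, 24.5 and 29.5 against 2.57, 1.95 and 2.76 (2.96 ± 0.13). Des and Tagln, of contractile cells, differed by 4.18 ± 0.22 and 3.50 ± 0.13, and the collagen gene Col3a1 by 3.38 ± 0.21. Fn1, the matrix protein fibronectin, was the exception, at 17.4, 21.7, 8.91 and 18.9 in spleen against 110, 123 and 123 in marrow (-2.82 ± 0.26, adjusted p = 2.4e-05). Fn1 is also in the monocyte list. Of genes that serve the marrow niche, 9 of 14 tested were higher in spleen than in flushed marrow. Vcam1, among the 9, is also in the macrophage list. Foxc1 and Ebf3 were too low to test, and both had higher means in marrow, Ebf3 at 0.0261 to 0.099 in spleen against 0.639 to 0.734. Cxcl12, which retains stem cells and B precursors, read 168, 219, 183 and 200 in spleen against 102, 63.5 and 94.6 (1.16 ± 0.17, adjusted p = 0.000252). Kitl, the stem cell factor gene, differed by 2.13 ± 0.15 and Lepr by 1.01 ± 0.22. Angpt1, Hp and Adipoq were the 3 higher in marrow, and Hp is also in the primary granule list. Adipoq, the adipocyte hormone gene, read 0.304, 0.689, 1.48 and 5.21 in spleen and 7.31, 5.04 and 5.76 in marrow, so the groups overlapped, and spleen library 4 also had the highest summed value of 11 adipocyte genes among spleens (76.25 against 11.59 to 32.93). Its call (adjusted p = 0.0381) was lost without any one of the libraries other than spleen library 4 (adjusted p = 0.0588 to 0.115), and that of Angpt1 without marrow library 2 or 4 or spleen library 1 or 3 (0.0502 to 0.0951). Of 7 bone matrix genes tested, Ibsp, Runx2 and Spp1 were higher in marrow, and Alpl (0.56 ± 0.13) and Col1a2 (2.16 ± 0.43), both also expressed outside bone, were higher in spleen. Ibsp, made by osteoblasts, was listed at 0 in all 4 spleens and at 14.6, 6.64 and 9.01 in marrow.

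**Figure D2:**
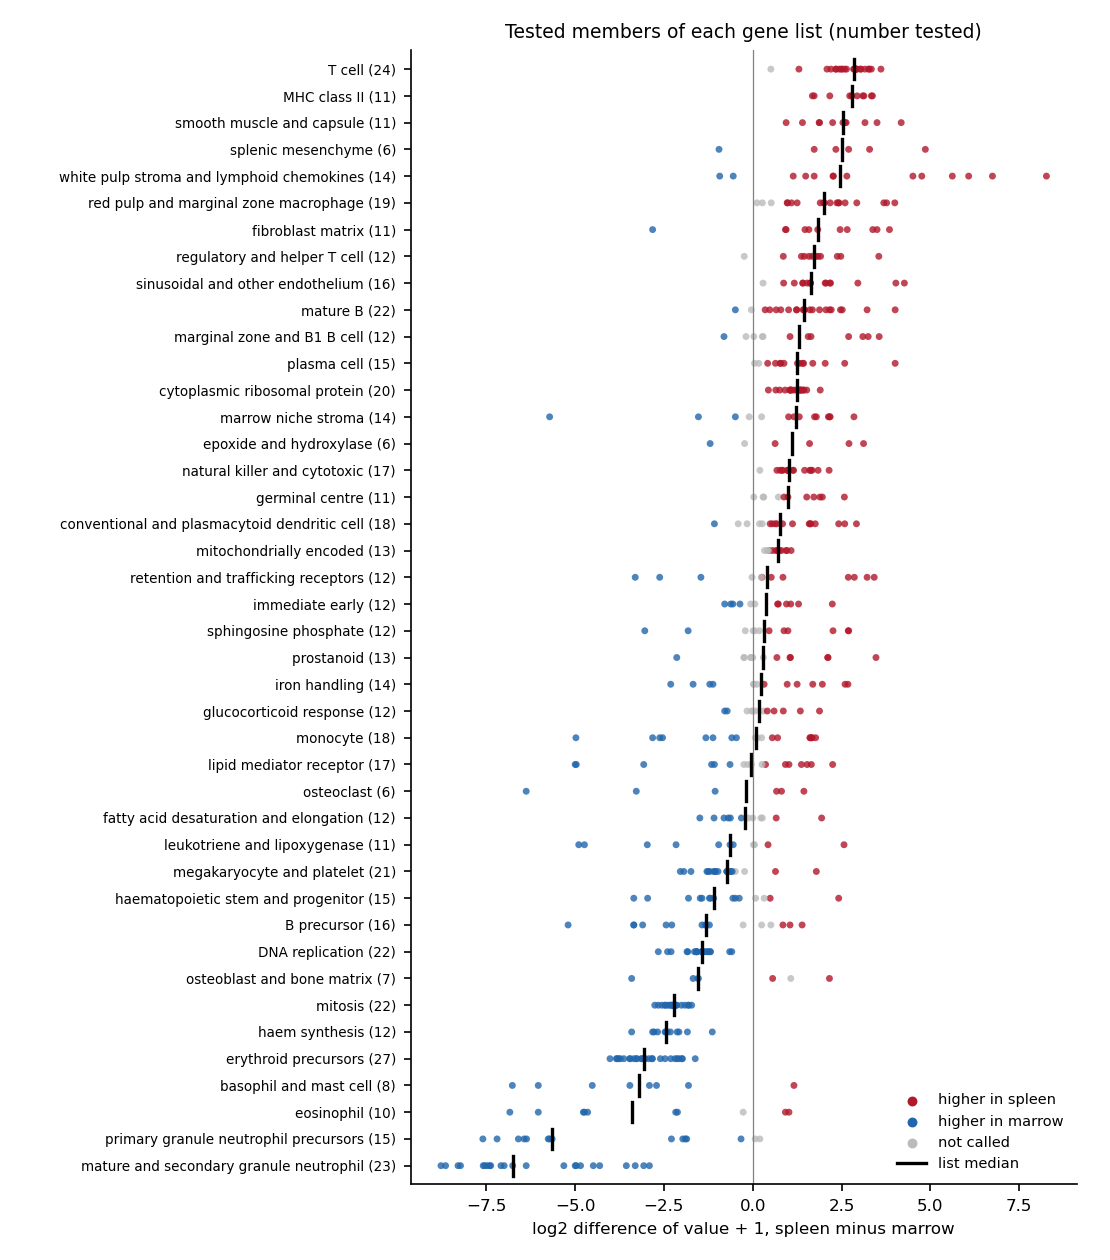
log2 difference of value + 1, spleen minus marrow, for the tested members of each gene list with at least 6 tested, 1 point per gene, coloured by its limma call, with a bar at the list's median. T cell and MHC class II lists lie highest, at medians of 2.85 and 2.79, and the mature neutrophil list lies lowest, at -6.76.

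Neutrophil genes had the list median farthest from 0. All 23 genes of mature neutrophils and secondary granules were higher in marrow (median -6.76), as were 13 of 15 genes of the earlier, primary granule stage (median -5.65). S100a8 read 93.5, 157, 163 and 71.7 in spleen and 19200, 20500 and 18200 in marrow, and its partner S100a9, with which it forms calprotectin, read 114, 168, 206 and 92.8 against 25300, 27200 and 22600 (-7.38 ± 0.28 and -7.48 ± 0.25). Together they held 0.0323% ± 0.00911 (SD, n = 4) of all values in spleen and 4.6% ± 0.195 (n = 3) in marrow. Ngp and Camp, of secondary granules, differed by -8.78 ± 0.29 and -8.23 ± 0.48. Mpo, the myeloperoxidase of primary granules, read 1.87, 1.53, 4.13 and 1.48 against 651, 606 and 553 (-7.60 ± 0.24), and Elane, neutrophil elastase, 1.3, 1.43, 2.72 and 1.37 against 449, 379 and 346 (-7.20 ± 0.18, adjusted p = 6.34e-09). Spleen library 3 was the highest spleen for both. Without it the list medians were -6.85 and -5.72. Cxcr2, the receptor by which neutrophils leave marrow, was also higher there (-3.31 ± 0.11). Srgn and Nkg7, which cytotoxic lymphocytes also express, were the members of the early list not called.

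Promoter letters were not used by the comparison. AGGAAGT, a form of the ETS site read by PU.1, stood on either strand in 6 of 13 promoters of that list, among them Mpo, Elane, Prtn3 and Ctsg, against 7.82% of all RefSeq promoters. The same letters stood in 6 of 13 T cell promoters, whose genes were higher in spleen. The windows of Elane (chr10:79886062-79886246, plus strand, ended before the annotated gene) and Ctsg (chr14:56102575-56102824, minus strand) are shown with these letters in capitals.
Elane: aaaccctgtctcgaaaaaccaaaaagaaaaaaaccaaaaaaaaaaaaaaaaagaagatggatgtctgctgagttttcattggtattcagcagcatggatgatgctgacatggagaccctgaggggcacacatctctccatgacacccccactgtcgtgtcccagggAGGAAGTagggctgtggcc
Ctsg: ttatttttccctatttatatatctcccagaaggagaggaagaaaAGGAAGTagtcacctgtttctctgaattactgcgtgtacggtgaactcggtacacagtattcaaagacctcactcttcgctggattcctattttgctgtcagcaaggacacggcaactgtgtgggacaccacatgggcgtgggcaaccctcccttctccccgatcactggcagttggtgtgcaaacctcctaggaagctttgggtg
In both the letters occurred once, on the strand of the gene.

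Eosinophil and basophil granule genes went the same way as those of neutrophils. Of 10 eosinophil genes 7 were higher in marrow: Ear1, a ribonuclease gene, read 0.754, 0.388, 1.18 and 0.323 against 203, 154 and 204 (-6.84 ± 0.19), and Epx, eosinophil peroxidase, 0.134, 0.331, 0.158 and 0.123 against 38.7, 19.7 and 39.8 (-4.77 ± 0.23). Marrow library 2 was the lowest marrow for both. The receptors Ccr3 and Il5ra of the same cells were instead higher in spleen, by 1.02 ± 0.12 and 0.92 ± 0.15. Of 8 basophil and mast cell genes 7 were higher in marrow: Mcpt8, a basophil protease, read 0.637, 0.267, 0.388 and 0.631 against 102, 94.4 and 91.5 (-6.04 ± 0.13), and Prss34 0.477, 0, 0.374 and 0.51 against 148, 147 and 137 (-6.77 ± 0.15). Cma1, a mast cell chymase, was the one higher in spleen (1.16 ± 0.19).

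Ly6c2 and Ccr2, of the inflammatory monocytes that leave marrow through CCR2, were higher in marrow by -2.54 ± 0.12 and -2.62 ± 0.12 on the spleen minus marrow scale, and F13a1 by -4.98 ± 0.11. Csf1r, Ctss and Treml4, of later monocytes and macrophages, were higher in spleen by 1.66 ± 0.11, 1.77 ± 0.10 and 1.61 ± 0.12, and of 18 genes 7 were higher in spleen and 8 in marrow.

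Macrophage genes of spleen were higher in 16 of 19 (median 2.02), and none was higher in marrow. Spic, the regulator of iron-recycling red pulp macrophages, read 44.9, 53.4, 46.5 and 43.8 against 5.91, 6.18 and 8.94 (2.60 ± 0.14, adjusted p = 4.76e-07). Cd209b, of marginal zone macrophages, differed by 3.69 ± 0.21, and the complement genes C1qa, C1qb and C1qc by 2.43, 2.41 and 2.37. Marco, a scavenger receptor of the marginal zone, read 68.5, 72.6, 116 and 67.1 in spleen and 0.971, 0.384 and 44.8 in marrow (4.00 ± 1.25, adjusted p = 0.0321). Marrow library 4 alone set that wide error: without it the difference was 5.60 (adjusted p = 1.33e-06), and without any one of the other 6 libraries the call was lost (3.07 to 4.07, adjusted p = 0.0621 to 0.104). Of 14 iron genes 7 were higher in spleen and 4 in marrow. Slc40a1, the iron exporter ferroportin, and Hmox1, which opens haem, were higher in spleen (0.97 ± 0.13 and 1.25 ± 0.13), and the 12 tested genes of haem synthesis were all higher in marrow (median -2.43), with Alas2, its first erythroid step, at -2.13 ± 0.28. Neither ferritin gene was called: Fth1 differed by 0.03 ± 0.16 and Ftl1 by 0.02 ± 0.16. Under quantile normalization they differed by -0.84 and -0.75 and were called higher in marrow, where 6 of 14 iron genes then were.

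Red cell precursor genes were higher in marrow in 27 of 27 (median -3.06). Haemoglobin genes held 12, 10.6, 23.1 and 12.5% of all values in spleen and 44.3, 43.2 and 38.7% in marrow, that is 14.5% ± 5.78 against 42.1% ± 2.96 (exact two-sided permutation test, p = 0.0571, the smallest that 4 against 3 libraries allow). Spleen library 3 stood between its group and marrow. Klf1, the red cell regulator, read 6.39, 7.18, 30.6 and 6.72 against 114, 77.1 and 86.1 (-3.06 ± 0.56, adjusted p = 0.00349), and Gata1 4.32, 5.38, 16.2 and 6.86 against 63.1, 51.4 and 58.3 (-2.83 ± 0.38). The same library was the high spleen in each, and without it the list median was -3.50 with all 27 still called. Platelet lineage genes were higher in marrow in 16 of 21, with a median of -0.73, and in 10 of 21 in the model of all 37 libraries: Itga2b, a fibrinogen receptor subunit, differed by -1.94 ± 0.13, and Pf4, platelet factor 4, by -0.49 ± 0.20 and was not called. P2ry12 and Clec1b, which other cells also express, were the 2 higher in spleen.

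**Figure D3:**
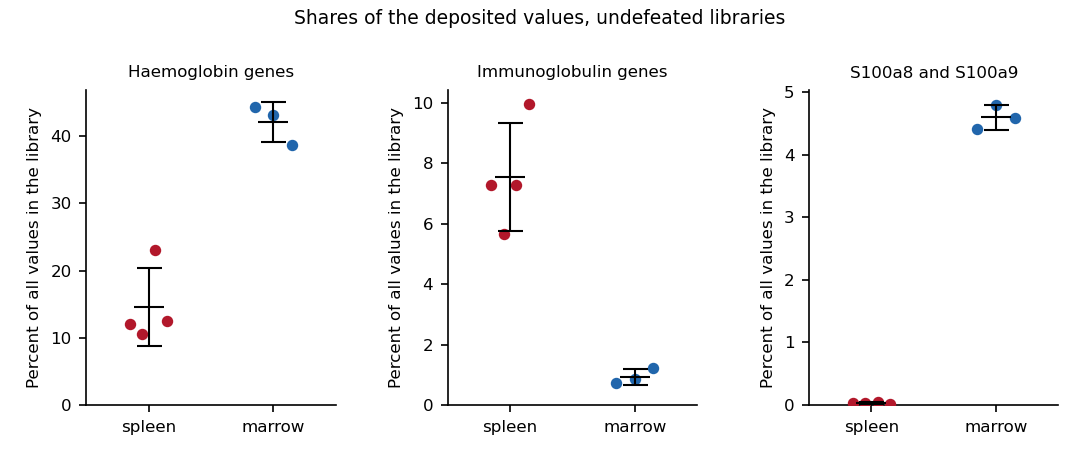
Percent of all deposited values in a library held by haemoglobin, immunoglobulin, and S100a8 with S100a9, 1 point per library with the mean and SD (4 spleens, 3 marrows). The tissues separate in each panel, with spleen library 3 at 23.1% for haemoglobin, and marrow at 38.7% to 44.3%.

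Genes of dividing cells were higher in marrow. All 22 replication genes and all 22 mitosis genes were higher there (medians -1.44 and -2.22). Mki67, a marker of cycling cells, read 24.9, 16, 19.5 and 18 in spleen and 125, 116 and 144 in marrow (-2.66 ± 0.15, adjusted p = 4.94e-07), Top2a, which untangles chromosomes, 57.4, 38.4, 51.5 and 44.3 against 220, 201 and 222 (-2.15 ± 0.14), and Mcm2, of the replicative helicase, 22.5, 15.8, 23.2 and 21 against 68, 57.4 and 64.3 (-1.58 ± 0.14). No library of one tissue overlapped the other for these genes. The stem and progenitor list showed the same direction in 11 of 15, and in 8 of 15 with totals made equal. It was led by Myb (-3.35 ± 0.12), which is also in the B precursor list, and Prom1 (-2.96 ± 0.11). Kit and Cd34 differed by -0.56 ± 0.12 and -0.38 ± 0.14. The call of Cd34 was lost without any one of the marrow libraries or spleen library 1 or 2 (adjusted p = 0.0525 to 0.113). Procr and Flt3, which vessels and dendritic cells also express, were the 2 higher in spleen.

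Letters of cell cycle control were counted in mitosis promoters. CCAAT, bound by NF-Y, stood on either strand in 17 of 19 mitosis promoters (89.5%) against 34.4% of all RefSeq promoters, and TTTGAA, the cell cycle homology region, in 7 of 19 against 16.3%. All 7 held both, as did 5.72% of all promoters. Neither run was particular to mitosis genes. CCAAT also stood in 7 of 8 MHC class II promoters (87.5%), whose genes were higher in spleen, and TTTGAA in 4 of 13 primary granule promoters (30.8%). Several runs of letters were searched in several lists, and the shares were not tested. Top2a (chr11:99024190-99024439, minus strand) and Ccnb2 (chr9:70421555-70421804, minus strand) are printed as members with both, in capitals on either strand.
Top2a: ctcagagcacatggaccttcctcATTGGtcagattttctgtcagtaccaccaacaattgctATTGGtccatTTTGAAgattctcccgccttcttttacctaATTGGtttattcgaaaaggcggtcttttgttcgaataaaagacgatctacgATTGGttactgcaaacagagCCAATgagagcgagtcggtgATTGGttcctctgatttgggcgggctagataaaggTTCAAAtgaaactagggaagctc
Ccnb2: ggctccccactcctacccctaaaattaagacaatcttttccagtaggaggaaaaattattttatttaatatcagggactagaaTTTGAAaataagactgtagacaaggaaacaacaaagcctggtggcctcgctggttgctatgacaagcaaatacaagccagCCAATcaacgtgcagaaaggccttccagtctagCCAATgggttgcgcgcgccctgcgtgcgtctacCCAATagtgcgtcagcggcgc
Of DNA replication promoters 11 of 18 held CCAAT and 6 of 18 held TTCCCGC, an E2F form found in 3.86% of all promoters and in 7.1% of those of tested genes.

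The B lineage split by stage. Genes used while receptor genes are assembled were low in spleen: Igll1, of the surrogate light chain, read 0, 0, 0.123 and 0.036 against 33.5, 44.2 and 34.8 (-5.20 ± 0.13), Rag1, of the recombinase, 0.0449, 0.0437, 0.0555 and 0.0322 against 7.44, 15.2 and 7.73 (-3.35 ± 0.22), and Dntt, which adds bases at junctions, 1.67, 1.08, 3.28 and 1.21 against 23.6, 21.9 and 20.6 (-3.10 ± 0.23). The tissues were far apart in all 3 genes. In total 10 of 16 precursor genes were higher in marrow (median -1.33), and the 3 higher in spleen, Pax5, Lef1 and Blnk, stay on in mature lymphocytes. The call of Pax5 (0.85 ± 0.29, adjusted p = 0.0306) was lost without marrow library 1 or 4 or spleen library 1, 2 or 4 (adjusted p = 0.0543 to 0.102). Mature B cell genes were higher in spleen in 20 of 22 (median 1.45), and in 15 of 22 in the model of all 37 libraries. Cr2, the complement receptor CD21, read 117, 123, 79.4 and 128 against 4.85, 6.33 and 6.53 (4.01 ± 0.17, adjusted p = 1.13e-07), and Cxcr5, the receptor for CXCL13, 91.3, 77.6, 69.1 and 76.6 against 7.53, 7.9 and 7.18 (3.22 ± 0.11). Ms4a1, which encodes CD20, and Ighd, the IgD heavy chain, differed less, by 2.47 ± 0.16 and 2.21 ± 0.13, and Cd72 was the one higher in marrow (-0.49 ± 0.16), a call lost without marrow library 2 or 4 or spleen library 2 (adjusted p = 0.0547 to 0.106).

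Later B cell states were likewise on the spleen side. Of 12 marginal zone and B1 genes 7 were higher in spleen, such as Fcrl5 (3.25 ± 0.14), Dtx1 (3.10 ± 0.15), a Notch target, and S1pr3 (2.7 ± 0.13), while Cd1d1 read 16.6 to 23.5 in spleen and 16.3 to 23.6 in marrow and Cd9 was higher in marrow (-0.81 ± 0.10). Germinal centre genes were higher in spleen in 7 of 11, and Bcl6, a regulator of germinal centre B cells, was not called (0.03 ± 0.15). Plasma cell genes were higher in spleen in 13 of 15 (median 1.26), and in 11 of 15 in the model of all 37 libraries. Jchain, which joins IgM and IgA subunits, read 962, 812, 1190 and 958 against 62.8, 50.7 and 66.2 (4.01 ± 0.15, adjusted p = 5.54e-08), Mzb1 differed by 2.59 ± 0.13, and Prdm1, the regulator of the plasma cell state, by 1.33 ± 0.14.

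Antibody transcripts took 7.29, 5.66, 7.28 and 9.96% of all values in spleen and 0.722, 0.859 and 1.22% in marrow (exact two-sided permutation test, p = 0.0571, the smallest possible). Ighm read 6770, 4740, 7240 and 7400 against 1020, 1190 and 1250 (2.48 ± 0.19), and Igkc 16000, 12100, 21800 and 22100 against 1590, 1770 and 2250 (3.24 ± 0.24). Switched classes varied more between libraries. Ighg2c read 862, 409, 462 and 1280 against 8.69, 14.3 and 149 (4.59 ± 1.03), a difference of 5.80 without marrow library 4 and 3.82 without marrow library 1. Ighg2b differed by 3.78 ± 0.73 and Ighg1 by 2.46 ± 0.64, and leaving out marrow library 1 or 4 moved these to 3.06 or 4.40 and to 1.79 or 3.08. Igha read 186, 193, 1000 and 457 against 157, 142 and 134, without overlap and without a call (1.31 ± 0.62, adjusted p = 0.114). Variable segments followed: summed values were 6.4-fold higher in spleen for the heavy chain (80 of 98 segments called), 10.5-fold for kappa (89 of 94) and 7.61-fold for lambda (3 of 3), and no segment was higher in marrow.

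**Figure D4:**
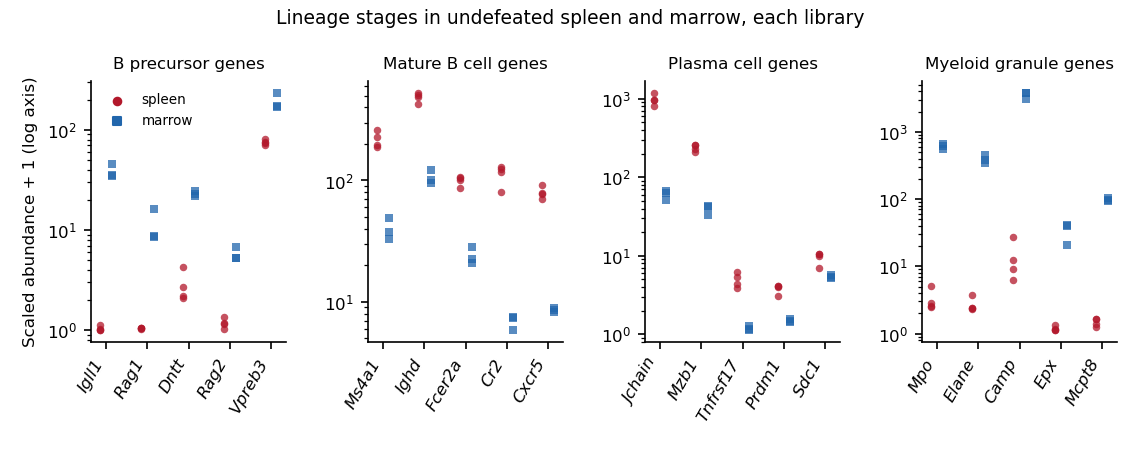
Deposited scaled abundance plus 1 (log axis) of genes of B precursors, mature B cells, plasma cells and myeloid granules, 1 point per library, spleen as circles and marrow as squares. Precursor and granule genes lie higher in marrow and mature B and plasma cell genes lie higher in spleen, as with Rag1 at 0.0322 to 0.0555 in spleen and Jchain at 812 to 1190.

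T cell genes were higher in spleen in 23 of 24 (median 2.85), the exception being Il7r, which early B cells also express (0.51 ± 0.23, not called). Cd3e, of the receptor complex, read 58.4, 45.4, 44.7 and 50.5 against 5.6, 5.33 and 6.43 (2.9 ± 0.12, adjusted p = 9.89e-08), and Trac, the alpha chain constant region, 166, 125, 117 and 124 against 11.6, 11.3 and 15.5 (3.28 ± 0.15). Cd4 and Cd8a moved by similar steps, 2.34 ± 0.17 and 2.84 ± 0.10. Summed variable segments were 9.34-fold higher for the alpha chain and 12.5-fold higher for the beta chain. Regulatory and helper genes were higher in spleen in 11 of 12, with Foxp3 at 6.26, 4.41, 3.53 and 5.74 against 0.715, 0.662 and 0.552 (1.84 ± 0.17). Il2ra, which B precursors also carry, was the one not called (-0.24 ± 0.14). Natural killer genes followed in 16 of 17 but by less (median 1.01), and in 12 of 17 in the model of all 37 libraries. Ncr1, a receptor of these cells, read 6.32, 10.5, 6.01 and 7.16 against 3.76, 3.84 and 3.24 (0.85 ± 0.18).

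All 11 MHC class II pathway genes were higher in spleen (median 2.79). H2-Aa read 2550, 2550, 2540 and 2540 in spleen and 271, 265 and 218 in marrow (3.34 ± 0.12, adjusted p = 4.86e-08), H2-Eb1 2030, 1890, 1930 and 1790 against 204, 190 and 161 (3.37 ± 0.12), and Ciita, the coactivator that switches this pathway on, 48.6, 37.4, 35.3 and 58 against 5.45, 6.52 and 5.34 (2.73 ± 0.17). Class II promoters carry a Y box, an inverted CCAAT read as CTGATTGG. Of 8 with a RefSeq promoter 4 held these letters, against 4.07% of all promoters and 5.92% of those of tested genes. The same letters, which hold CCAAT on the other strand, stood in 6 of 19 mitosis promoters, whose genes were higher in marrow. H2-Aa (chr17:34287824-34288073, minus strand) and H2-Eb1 (chr17:34305617-34305866, plus strand, part of it also an exon of an antisense RNA) show it in capitals.
H2-Aa: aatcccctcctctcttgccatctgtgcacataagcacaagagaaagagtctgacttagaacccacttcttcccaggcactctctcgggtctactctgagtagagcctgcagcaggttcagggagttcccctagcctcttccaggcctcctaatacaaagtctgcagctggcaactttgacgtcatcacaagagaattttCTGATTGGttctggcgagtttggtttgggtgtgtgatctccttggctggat
H2-Eb1: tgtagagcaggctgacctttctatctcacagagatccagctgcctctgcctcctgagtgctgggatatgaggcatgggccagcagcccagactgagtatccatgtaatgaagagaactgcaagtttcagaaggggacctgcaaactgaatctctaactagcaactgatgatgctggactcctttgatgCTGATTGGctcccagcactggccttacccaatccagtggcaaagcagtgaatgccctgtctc
Dendritic cell genes were higher in spleen in 13 of 18, and in 10 of 18 in the model of all 37 libraries. They were led among the first named by Xcr1, of cross-presenting cells (2.42 ± 0.16). Siglech, of plasmacytoid cells, overlapped between tissues (-0.16 ± 0.21) and Clec10a was higher in marrow (-1.08 ± 0.21).

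Genes of lipid mediators, a subject of the series, differed in direction from step to step. The leukotriene pathway starts with ALOX5 and its partner FLAP (Alox5ap) and then splits to LTB4 through LTA4H or to cysteinyl leukotrienes through LTC4S. Alox5 read 0.998, 0.922, 0.895 and 1.49 in spleen and 57.6, 66.3 and 58 in marrow (-4.90 ± 0.13, adjusted p = 9.83e-09), Alox5ap 55.7, 49.8, 74.9 and 55.9 against 490, 475 and 433 (-2.97 ± 0.14), and Lta4h 45.2, 39.5, 42.7 and 44.3 against 196, 197 and 192 (-2.16 ± 0.09). Ltc4s went the other way, at 7.38, 9.64, 15.8 and 11.6 against 0.931, 1.16 and 0.827 (2.57 ± 0.21, adjusted p = 5.91e-06). Of 11 genes of this list 7 were higher in marrow and 2 in spleen, Ltc4s and Dpep2, and Alox15, abundant in eosinophils, differed by -4.74 ± 0.14. Ltb4r1, the receptor for LTB4, read 0.944, 1.64, 1.18 and 0.835 against 70.2, 71 and 60.9 (-5.0 ± 0.15), and Cysltr1 was too low to test. Fpr2, which binds lipoxin among other ligands, differed by -4.97 ± 0.10 and Gpr18 by 2.25 ± 0.12. Neutrophils also express Alox5ap, Ltb4r1 and Fpr2. The mature neutrophil list, of which Ltb4r1 and Fpr2 are themselves members, had a median of -6.76. The part of neutrophils in the differences of this paragraph, those of Alox5 and Lta4h included, was not tested.

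Of 13 prostanoid genes 6 were higher in spleen and 1 in marrow, and 3 to 4 were higher in marrow with median-ratio rescaling or equal totals without haemoglobin genes. Ptgs1, the constitutive cyclooxygenase, read 18.8, 20.7, 18.8 and 19.2 against 17.8, 19.3 and 24.1 (-0.06 ± 0.12), and Ptgs2, the inducible one, was at 0.135 or below in every library. Hpgds, which makes prostaglandin D2, differed by 1.06 ± 0.16 and Ptgis, prostacyclin synthase, by 2.11 ± 0.20. Hpgd, which inactivates prostaglandins, read 48.2, 77, 60.8 and 46.7 against 12.4, 13 and 11.6 (2.12 ± 0.17), and Slco2a1, the transporter that takes them up, 14.8, 14.7, 11.5 and 16.2 against 0.23, 0.181 and 0.79 (3.47 ± 0.18). Ptgr1, a reductase of a later step of inactivation, was the one higher in marrow (-2.14 ± 0.11). Epoxide hydrolases, which turn epoxy fatty acids into diols, were higher in spleen, Ephx1 by 2.71 ± 0.09 and Ephx2 by 1.6 ± 0.12.

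Of 12 genes of sphingosine 1-phosphate, the lipid that draws lymphocytes out of tissue, 6 were higher in spleen and 2 in marrow. The receptor gene S1pr1 read 70.6, 73.6, 70.5 and 68.8 in spleen and 9.72, 11.4 and 9.46 in marrow (2.69 ± 0.10, adjusted p = 4.67e-08), while Mfsd2b, the exporter of red cells and platelets, and the kinase Sphk1 were higher in marrow (-3.04 ± 0.24 and -1.82 ± 0.30). Spleen library 3, high in red cell genes, was also the highest spleen for both. Among trafficking receptors, Cxcr4, the receptor for CXCL12, was higher in marrow (-1.46 ± 0.18), opposite to its ligand, and Ccr7, for which spleen makes both ligands, was higher in spleen (2.86 ± 0.12). Of 12 fatty acid genes 6 were higher in marrow and 2 in spleen, and the marrow count was 4 with totals made equal and 3 in the model of all 37 libraries. The 2 were Scd1, a desaturase, at 121, 120, 87.9 and 164 against 28.3, 34.8 and 28.9 (1.94 ± 0.19), and Elovl5, an elongase (0.66 ± 0.10).

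Of genes that respond to glucocorticoid, 5 of 12 were higher in spleen and 2 in marrow, with the receptor Nr3c1 at 0.30 ± 0.13 and the target Fkbp5 at 51.5, 30.3, 30.1 and 39.8 against 47.9, 30.3 and 37 (-0.03 ± 0.21). Per1 and Dusp1 were the 2 higher in marrow, calls not made in the model of all 37 libraries, and Ddit4 differed most in the other direction (1.88 ± 0.24). Of immediate early genes 6 of 12 were higher in spleen, Egr1 among them (1.29 ± 0.15), and 4 in marrow, Fos among them (-0.62 ± 0.14), against 3 and 2 in that model. Ribosomal protein genes were higher in spleen in 20 of 20 (median 1.24). Under quantile normalization 15 were, with a median of 0.49, and with a log2 fold threshold of 1 only 1 was. Mitochondrially encoded genes were called in 10 of 13 (median 0.70), a count that fell to 1 under quantile normalization with a median of -0.01, to 5 with median-ratio rescaling, to 0 in the model of all 37 libraries, and to 5 to 6 without marrow library 1 or 4 or spleen library 1.

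The same contrast in defeated mice was fitted with all 37 libraries in 1 model, with 4 marrow and 2 spleen libraries after 1 defeat, 3 and 2 after 4, 5 and 6 after 10, and 4 and 4 after the week of rest. After 1 defeat 34.5% of genes were higher in spleen and 18.1% in marrow, after 4 defeats 27% and 15.8%, after 10 defeats 35.4% and 35.4%, and after rest 26.9% and 29.9%. Genes called higher in undefeated spleen were called again in 73.2%, 65.4%, 61% and 66.1% of cases, and those of undefeated marrow in 59.4%, 52.4%, 60.4% and 71.5%. After 10 defeats 492 of the spleen genes and 608 of the marrow genes were called in the opposite direction, against 9 and 27 after 1 defeat. With only the compared groups in the model these were 358 and 473 against 28 and 33, and under quantile normalization 503 and 633 against 57 and 25. A test of the difference between the contrasts called 157 genes after 1 defeat, 55 after 4, 6022 after 10 and 565 after rest. Groups with 2 spleens have less power, so their lower counts do not show a smaller departure.

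Lists differed in how their baseline gap looked across conditions. The red cell precursor median was -3.06 in undefeated mice, -3.20 after 1 defeat, -1.72 after 4, 0.98 after 10 and -0.08 after rest, with 16 of 27 genes higher in spleen after 10 defeats and none in undefeated mice. In the same contrast after 10 defeats, mitochondrially encoded genes had a median of -2.15 (12 of 13 higher in marrow) against 0.70 in undefeated mice, and the 2 pancreatic acinar genes tested had a median of 2.57 (2 of 2 higher in spleen) against 0.17. The part of these in the red cell change was not tested. Mitosis genes went from -2.22 through -2.16 and -1.51 to -0.39, and stood at -1.23 after rest. Mature neutrophil genes went from -6.76 through -7.17, -4.62 and -4.57 to -3.02 after rest, with 23 of 23 genes higher in marrow at 10 defeats. Medians of the T cell list (2.85, 2.78, 2.98, 1.90 and 2.55) and of white pulp stroma (2.46, 2.9, 2.65, 2.04 and 2.50) stayed between 1.90 and 2.98 in every condition. MHC class II genes were higher in spleen in 11 of 11 in all 5 conditions. These medians describe the lists and were not tested between conditions.

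**Figure D5:**
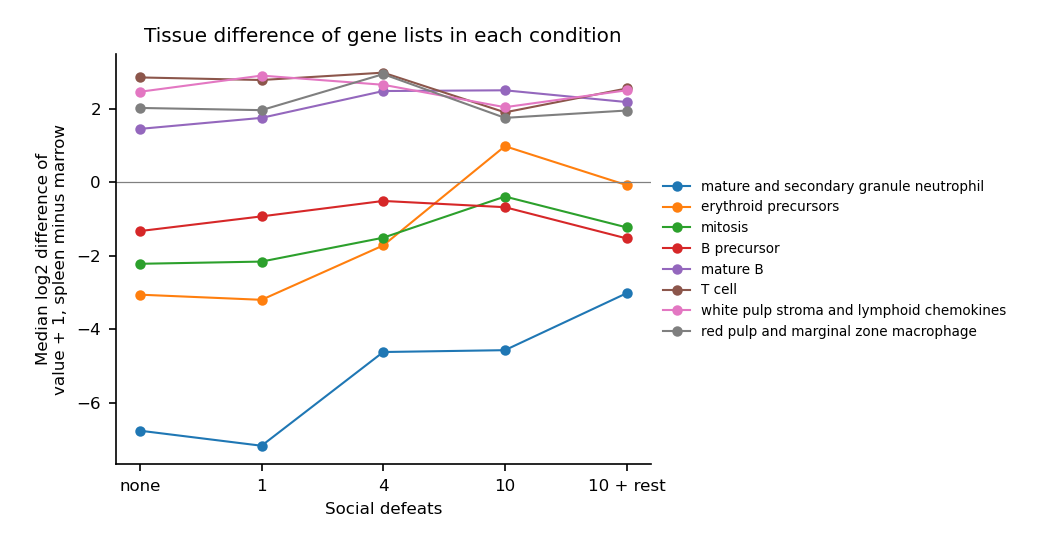
Median log2 difference of value + 1, spleen minus marrow, of 8 gene lists in undefeated mice and after 1, 4 and 10 defeats and 10 defeats with a week of rest. The red cell precursor line crosses 0 at 10 defeats (0.98), while the T cell and white pulp lines lie between 1.90 and 2.98.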

How the data were processed

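RNA was measured by stranded mRNA sequencing, per the labels' protocols. The values are the authors' deposited scaled abundances per gene, a signal that is neither counts nor CPM. The submitters' processing notes name kallisto 0.46.1, sleuth and GRCm38, and the scaling step is not named there. Of 35885 gene IDs 35626 (99.28%) matched the GRCm38 annotation. Genes reaching a value of 1 in 3 or more of the 7 libraries were tested with limma 3.58.1 in R 4.3.3 on log2(value + 1), with a trended and robust prior and Benjamini-Hochberg adjustment, at 0.05. Shares were compared by an exact permutation test in scipy 1.17.1. On simulated data with 13039 genes, 78% of genes changed by a log2 of 1 and 99% of those changed by 2 were recovered, with 6 false calls. There 100 genes per step were changed, all raised in spleen, with normal noise and a marrow mean of log2(value + 1) above 2. These rates need not hold for genes near the floor, or where 61.8% of genes are called in both directions.

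Members and gene lists were chosen with earlier results of these data known. Named genes were the 10 with the largest called difference in each direction (mean of at least 2, libraries apart, no predicted models, pseudogenes or receptor segments), the first 4 of each list, up to 4 more with the smallest p, and immunoglobulin constant genes. Members named because a count was small, such as Ltbr, Tnfsf13b, Angpt1, Clec1b, Pax5, Lef1, Blnk, Cd72, Clec10a, Ccr3, Il5ra, Dpep2, Dusp1, Il7r, Il2ra, Alpl and Col1a2, and those named beside a promoter or as a list's exception, were named after their values were seen. Depth was estimated assuming 200-base fragments, and 65.7% to 71.93% of low values lay within 0.1 of a whole number of reads, too few to recover counts, so no count model was used. Other scalings, filters, a pseudocount of 0.1, a replicate block and leaving out each library were tried.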

Additional observations from a re-analysis of the deposited data

Results flagged for a closer look

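In the spleen group of 4, the library farthest from the others lay beyond Dixon's 95% critical value for 13 of 159 gene results, where chance alone gives about 1 in 20. Spleen library 3 was the far one for the haemoglobin share (23.1%) and for Ngp (27.4), Elane (2.72), Klf1 (30.6), Marco (116) and Prdm1 (2.05). Spleen library 1 was far for Tcf21 (25.5), Tlx1 (7.53), Itga2b (7.17) and Gpr18 (51.8), spleen library 2 for P2ry12 (14) and Ccr3 (18.1), and spleen library 4 for Lta (11.7) and Stab2 (29.5). The marrow group of 3 was not examined in this way.

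The tissue difference itself differed from that of undefeated mice, by a limma interaction test at an adjusted p under 0.05, for 157 genes after 1 defeat, 55 after 4 defeats, 6022 after 10 defeats and 565 after 10 defeats and rest.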

How the results depend on the processing

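The count of genes higher in spleen (4587) was 3044 with totals made equal without haemoglobin genes and 1090 with a log2 fold threshold of 1. The count of genes higher in marrow (3468) was 2249 with totals made equal and 917 with that threshold. Without 1 library the counts were 3881 to 4803 and 2977 to 3668. Shares moved by less than 1 SD, and counts of genes higher in each tissue in defeated groups by less than 1.5 times, under the alternatives run. Counts of genes called opposite to undefeated mice moved more: for spleen genes, 9 after 1 defeat became 28 with only the compared groups and 57 with quantile normalization, and 9 after 4 defeats became 8 and 40. Fth1 and Ftl1, not called in the main fit, went to -0.84 and -0.75 with quantile normalization and were called higher in marrow there. Among the other named genes no direction that was called reversed. Deviations of same-numbered spleen and marrow libraries correlated at -0.052, 0.092 and 0.142 for numbers 1, 2 and 4. For spleens 2 and 4 the marrow of the same number was the best match, and for spleen 1 it was not. With so few libraries this cannot decide whether they share a mouse, and the main fit did not pair them. With a replicate block the counts were 4778 and 3369, and 3 named genes (Adipoq, Marco and Cd72) lost their call while 3 (Pf4, Il7r and Nr3c1) gained one. Few libraries limit the shares, for which no p under 0.0571 is possible, and values near 1 are compressed by the pseudocount.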
